A study of Mus musculus with 6 samples.

Results

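Small nucleolar RNAs (snoRNAs) and small Cajal body RNAs were followed through a table of FPKM values (fragments scaled for transcript length and library size) from the newborn mouse cerebellum. The loci were chosen by name: every gene symbol of the locus had to start with Snord, Snora or Scarna. The rule uses no measured value, but the class was singled out with results of these libraries already known, so the values that follow describe it and are not independent evidence. It took 117 of the 23793 loci, 79 Snord, 30 Snora and 8 Scarna. A further 8 loci that join such a symbol to another gene, for example Rabggtb,Snord45c, were left aside.

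The series is about Zeb2, a zinc finger transcription factor, in Bergmann glia and in the organisation of the cerebellum. Whole cerebellum was taken at postnatal day 0 from 3 control libraries (Zeb2 f/+; hGFAP-cre) and 3 conditional knockout libraries (Zeb2 f/f; hGFAP-cre), called cKO here. Both groups carried the Cre transgene, which the human GFAP promoter drives in neural progenitors and glia, and the controls carried 1 floxed allele, so neither group is wild type and only some cells of the tissue can lose Zeb2. The labels do not say that each library came from a separate animal, and p-values then measure only the spread between libraries.

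Snord loci encode C/D box snoRNAs, which guide the methylation of riboses in ribosomal RNA. Snora loci encode H/ACA box snoRNAs, which guide the conversion of uridine to pseudouridine, and Scarna loci encode relatives that work on spliceosomal RNAs in Cajal bodies. In mammals most are cut out of the introns of host genes, many of which encode ribosomal proteins, and the mature RNA has no poly(A) tail. FPKM divides a number of fragments by transcript length, and Cufflinks by design can use an effective length, the stretch in which a fragment can start. The labels do not say whether that correction, a selection for poly(A) RNA or a selection by size was used.

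The sequences below show how short the transcripts are, and how much shorter the gene models can be. Each is the GENCODE M21 transcript (GRCm38), 5′ to 3′ on its own strand, and capitals mark the bases that also lie in the RefSeq model (GRCm38.p6). Snord37 had the highest mean value of all loci in the table, Snord42b is a locus of nearly equal values in 3 libraries, Snord49b, Snord49a and Snord65 are neighbours that had values in controls and were listed at 0 in cKO, Snord98 has the shortest model, and in Snord95 both models are the same.
Snord37: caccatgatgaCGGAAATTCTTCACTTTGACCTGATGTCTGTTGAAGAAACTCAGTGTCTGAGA
Snord42b: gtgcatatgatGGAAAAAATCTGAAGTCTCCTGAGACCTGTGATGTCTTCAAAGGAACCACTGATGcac
Snord49b: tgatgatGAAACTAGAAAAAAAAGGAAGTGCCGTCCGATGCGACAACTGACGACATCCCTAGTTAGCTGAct
Snord49a: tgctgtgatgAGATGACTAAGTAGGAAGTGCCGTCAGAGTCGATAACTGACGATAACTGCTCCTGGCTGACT
Snord65: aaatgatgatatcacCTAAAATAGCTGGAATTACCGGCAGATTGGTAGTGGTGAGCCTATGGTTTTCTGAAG
Snord98: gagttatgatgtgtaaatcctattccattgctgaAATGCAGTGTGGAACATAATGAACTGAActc
Snord95: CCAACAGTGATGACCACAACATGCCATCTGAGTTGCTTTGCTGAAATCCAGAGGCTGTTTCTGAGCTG

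Snord37 lies at chr10:81178950-81179013 in an intron of Eef2, the gene of a translation elongation factor, and Snord42b at chr11:78183056-78183124 in an intron of the ribosomal protein gene Rpl23a. Snord49b (chr11:62603079-62603150), Snord49a (chr11:62603450-62603521) and Snord65 (chr11:62604515-62604586) lie in introns of 1 noncoding host gene, 2410006H16Rik. Snord98 lies at chr10:62765576-62765640 in an intron of Ccar1, and Snord95 at chr11:48803139-48803206 within Rack1, in an intron or an exon depending on the transcript. A single GENCODE position was found for 100 of the 117 loci, of which 95 lay in a host gene. Of those 95, 56 lay in an intron of every host transcript that spans them and 39 overlapped an exon of some transcripts. Hosts were taken on the same strand as the small RNA. Fragments of a snoRNA and of its host's unspliced RNA therefore cannot be told apart here, whatever the strand setting of the authors' counting, which is not given.

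RefSeq gave a length for all 117 loci, between 28 and 275 nt. The median was 68.0 nt for Snord, 119.5 nt for Snora and 94.5 nt for Scarna. Of 97 loci whose sequence was read, the RefSeq model was shorter than the GENCODE transcript in 80, as long in 10 and longer in 7, with a median difference of 12 nt. The models often leave out the start of the RNA. The letters TGATGA of the C box were found in the transcript strand of 42 of 63 Snord sequences but inside the RefSeq model in only 19, while CTGA of the D box was found in all 63, always inside the model. In the 34 Snora and Scarna sequences TGATGA stood in 5 and CTGA in 18. The letters ACA ending within 5 bases of the transcript's end stood in 28 of those 34 sequences and in 6 of the 63 Snord sequences. These are matches of letters and not shown sites.

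Zeros were common. Of the 117 loci, 33 (28.2%) were listed at 0 in all 6 libraries, 44 (37.6%) in some libraries and 40 (34.2%) in none. Among the other 23676 loci these shares were 16.5%, 11.7% and 71.8%. A zero in some libraries but not in others was thus the most frequent pattern here and the rarest elsewhere. The classes differed in their zeros: 30 of 79 Snord, 1 of 30 Snora and 2 of 8 Scarna loci had no value anywhere. The controls listed 49, 49 and 50 of the loci at 0, and the cKO libraries 59, 55 and 52.

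Length and copy number marked many of the 33. All 8 loci with a model of 28 to 48 nt were listed at 0 in every library, among them Snord98, Scarna9, Snord68 and Snord43. The shortest model with any value had 53 nt. The 10 loci of the Snord116 family, which is repeated within an imprinted cluster, were all at 0 at a model length of 90 nt. Of the loci named Snord53, 1 had values and the other two had none, and of those named Snord58b, 1 of the pair had none. How the authors assigned fragments that match several copies is not given, so the values of these repeated loci are uncertain. Snord118, the U8 RNA needed for maturation of ribosomal RNA, was at 0 despite a model of 137 nt. Snord37, with 53 nt, had the highest mean FPKM of the table. The cause of these zeros was not tested.

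The mean level of these loci was lower in longer models. Over the 84 loci with a value in some library, Spearman's rho between length and mean FPKM was -0.77, given as a description, since FPKM itself holds the length and all points share the same 6 libraries. With the median over libraries in place of the mean it was -0.33. Loci of 60 to 69 nt had a median mean level of 405 FPKM, those from 90 to under 120 nt 40.2 FPKM and those of 120 nt or more 15.1 FPKM. This class held 3 of the 10 loci with the highest mean FPKM overall and 8 of the top 50. Together the 117 loci made up 0.492% of the loci and took 4.70 to 6.32% of each library's FPKM sum.

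The values could be read as numbers of fragments in 4 libraries. In controls 2 and 3 and cKO 1 and 2, low values of all loci (at most 0.1 FPKM) shared a step pattern: 28.7 to 32.8% of the loci in each pair of these libraries had the same ratio within 0.01 log2 units, against at most 5.22% in any other pair. The step gave a depth, relative to control 2, of 1.02 for control 3, 0.797 for cKO 1 and 0.909 for cKO 2. Applied to the snoRNA loci, this made 243 of 243 values of 79 loci whole multiples of 1 step per length, within 0.02 steps. Snora28, Snora81 and Snord22 gave no such step. The 79 loci are those for which a step was found, so that all their values were whole follows from the choice. The largest error was 5.9e-05 steps. Control 1 and cKO 3 had no shared step and so no depth ratio, and no fragment numbers are given for them. In steps of control 2, unscaled for depth, 9.38% and 13.1% of their values were whole, which cannot show whether they hold whole fragments. A step is the largest that divides all values of its length, so where a length rests on 1 locus the true number may be a multiple of the one printed.

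Loci of equal length had identical values where they held equal numbers of fragments. Snord42b and Snord58b, both with 55 nt, stood at 1031 FPKM each in control 3 and at 1314 FPKM each in cKO 1. Snord52 and Snord38a, with 59 nt, both stood at 468 FPKM in control 2. No value was shared in this way in control 1 or cKO 3.

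One fragment was worth very different values. In control 2 the step was 1825 FPKM at 53 nt, 675 FPKM at 57 nt, 147 FPKM at 68 nt, 19.4 FPKM at 99 nt and 0.431 FPKM at 275 nt. It fell between 54 of 55 neighbouring lengths, and over the whole range by 4239-fold, while length itself changed by 5.19-fold. A plain division by these lengths would hold step times length constant, and it was 96740 at 53 nt and 118 at 275 nt. The values are thus not fragments divided by RefSeq length alone, and what else entered was not tested.

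**Figure D1:**
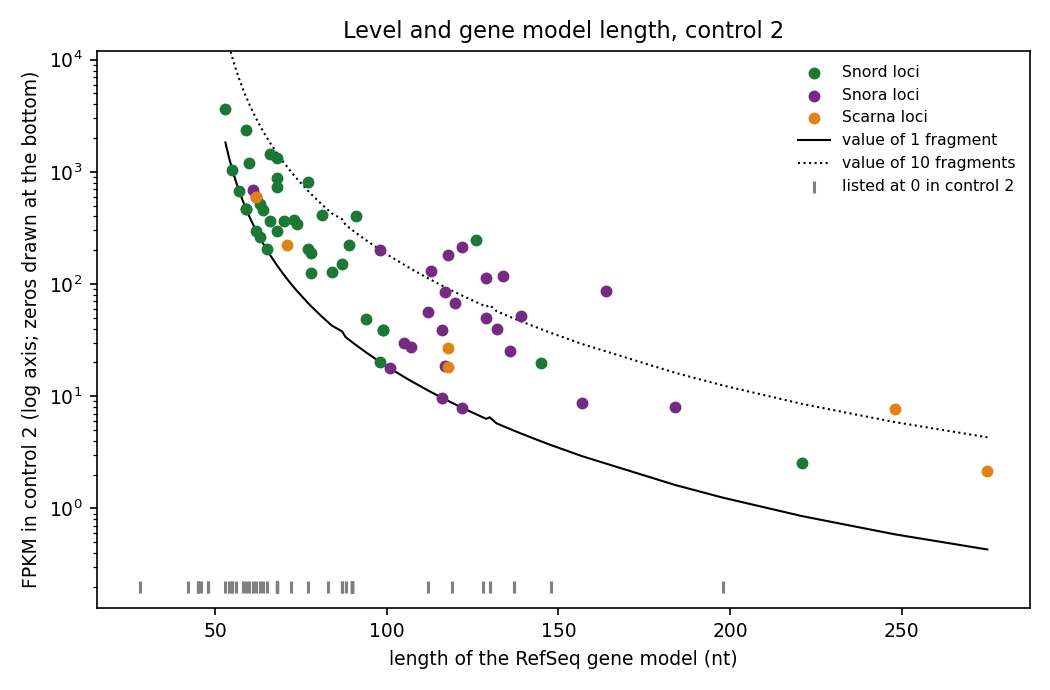
FPKM of each locus in control 2 (log axis) against the length of its RefSeq model, by class, with the value of 1 fragment (solid line) and of 10 fragments (dotted line) and loci listed at 0 as ticks at the bottom. The line of 1 fragment falls from 1825 FPKM at 53 nt to 0.431 FPKM at 275 nt, and the points follow its slope.

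Few fragments stood behind most values. Of the 243 values above 0, 57 (23.5%) were 1 fragment, 103 (42.4%) were 1 or 2, and 177 (72.8%) were at most 5. The median was 3 and the largest 22. Of the 79 loci, 51 never had more than 5 fragments in any of the 4 libraries, and only 8 had at least 5 in each. A count of 1 has an exact Poisson 95% interval of 0.0253 to 5.57 fragments, and a count of 4 one of 1.09 to 10.2, which cover counting error only.

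**Figure D2:**
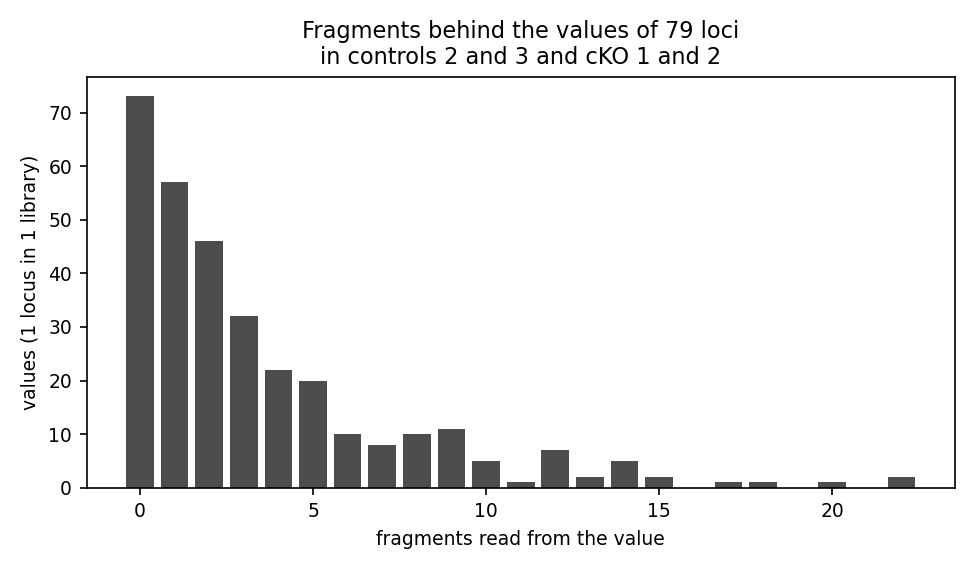
Number of values (vertical axis) by the number of fragments read from them (horizontal axis), for 79 loci in controls 2 and 3 and cKO 1 and 2. The bars are highest at 0 (73 values) and 1 (57 values), and the largest value is 22 fragments.

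Snord37 shows what this means for a high value. It stood at 6829, 3651 and 7181 FPKM in controls and at 2289, 4017 and 5624 FPKM in cKO, with a mean of 4932 FPKM, the highest of all loci. In the 4 libraries with steps these were 2 and 4 fragments in controls 2 and 3 and 1 and 2 fragments in cKO 1 and 2, 9 in all. The groups overlapped.

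Scarna6, a Cajal body RNA in an intron of Atg16l1, sits at the other end. Its 248 nt model had a mean of only 4.22 FPKM and rested on 34 fragments in the same libraries (exact Poisson 95% interval 23.5 to 47.5). By FPKM Snord37 was far above Scarna6, and by fragments it was below.

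Other C/D loci with high means rested on more. Snord69, in the nucleolar protein gene Gnl3, was at 1877, 2342 and 1843 FPKM in controls and 2350, 3093 and 4113 FPKM in cKO, every cKO value above every control value, from 4 to 6 fragments a library. Snord12, in the noncoding host Zfas1, was at 1107, 1455 and 2683 FPKM in controls and 1369, 600.3 and 1419 FPKM in cKO, from 3 to 15 fragments. Snord96a, in Rack1, was the steadiest of the 10 highest: 1310.1, 817 and 1138.5 FPKM against 854, 1124 and 878 FPKM, from 10 to 17 fragments, with overlapping groups. Snord100, in Rps12, was at 1120.02, 1325 and 1738 FPKM against 739, 2268 and 553 FPKM, from 4 to 14 fragments, and Snord2, in Eif4a2, ranged from 369 FPKM in cKO 1 to 1158 FPKM in control 3, from 2 to 8 fragments. The groups overlapped in both. Snord91a, in an intron of Tsr1, a ribosome maturation factor, was at 2983, 1195 and 1567 FPKM against 2498, 3945 and 3979.6 FPKM, from 3 to 9 fragments, and its groups overlapped.

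Values of a single fragment made some loci look uniform. Snord42b stood at 980.2, 1048 and 1031 FPKM in the controls, which were 1 fragment each in controls 2 and 3, and at 1314, 2306 and 0 FPKM in cKO, 1 and 2 fragments in cKO 1 and 2. Snord19, also in Gnl3, was listed at 0 in all controls and in cKO 3, and stood at 1703 and 4483 FPKM in cKO 1 and 2, from 1 and 3 fragments. It was the highest locus of all in cKO 2, and yet was not tested.

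The sums over loci depended on the unit. Over the 79 loci, fragments at the depth of control 2 summed to 322 and 305 in controls 2 and 3 and to 249.6 and 294 in cKO 1 and 2. The FPKM of the same loci summed to 23988 and 29201 in the controls and to 25930 and 32612 in cKO. By fragments both cKO libraries lay below both controls, and by FPKM the order was mixed. These are 2 libraries a group, and no test was made.

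The spread of fragments between libraries of a group was also measured. The mean dispersion index, the variance over the mean at equal depth, was 1.09 between controls 2 and 3 (65 loci with at least 2 fragments) and 1.14 between cKO 1 and 2 (56 loci), where Poisson counting has 1. The index scales with the step taken as 1 fragment and compares only 2 libraries a group, so it is given as a description.

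For the comparison of the groups, the fit used log2(FPKM + 1) and the 13612 loci that reached 1 FPKM in 3 or more of the 6 libraries, 73 of them from the class: 39 of 79 Snord, 29 of 30 Snora and 5 of 8 Scarna. A further 11 had a value somewhere but were not tested. A difference is cKO minus control on this scale, which understates the change of low values. Just inside the filter, the third highest value was 1.37 FPKM for Snora74a, 1.88 for Snord17, 3.08 for Scarna13, 3.60 for Snord15a and 4.42 for Scarna6. Outside it, Snord19, Snord66, Snord58b and Scarna17 had values in only 2 libraries and Snord123 in 1, each listed at 0 in the others.

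**Figure D3:**
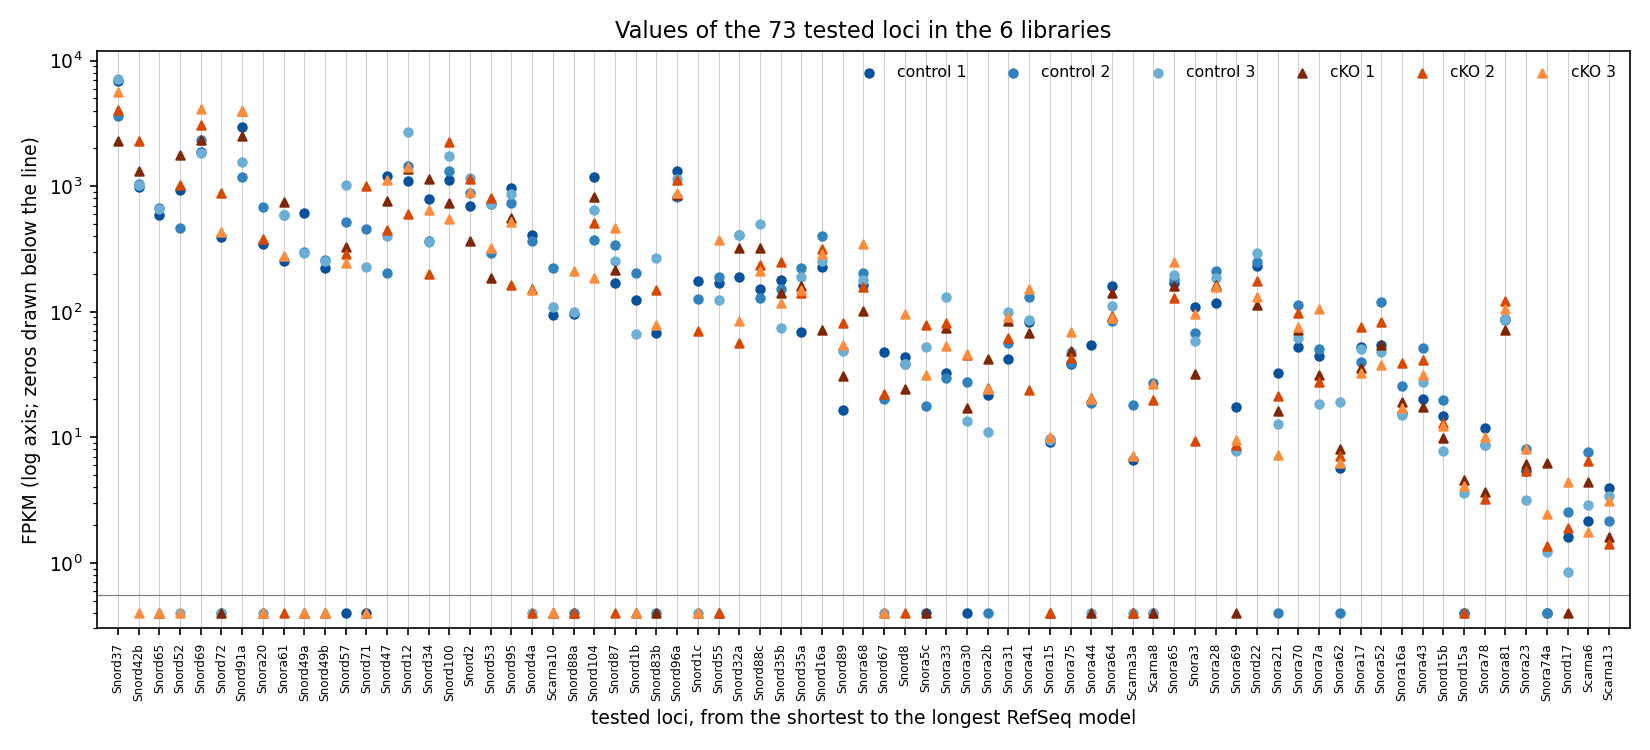
FPKM (log axis) of the 73 tested loci in each library, ordered from the shortest to the longest RefSeq model, controls as circles and cKO as triangles, with zeros below the grey line. Values fall from left to right, zeros stand beside high values in the shorter loci, and Snord65, Snord49a, Snord49b, Scarna10 and Snord1b have all 3 cKO points at 0.

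The spread between libraries was wide. The median within-group SD of log2(FPKM + 1) was 0.869 over the 73 tested loci and 0.0949 over the 13539 other tested loci, and 71 of the 73 lay above the 90th percentile of the others (0.184). At a mean of 100 to 1000 FPKM the medians were 0.908 for 28 loci of the class and 0.0901 for 732 others. A high FPKM thus did not come with a small spread here. The spread went with the number of fragments: loci with fewer than 8 in the 4 libraries had a median SD of 2.19 (30 loci), those with 8 to 19 one of 0.717 (19 loci), and those with 20 or more one of 0.646 (21 loci). A value of 0 beside high ones both lowers that number and raises the SD, so the link is partly built in.

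The largest SDs belonged to loci that were at 0 in some libraries of a group and high in others. Snord52, in the noncoding host 1110038B12Rik, was at 939.7, 468 and 0 FPKM in controls and 1763, 1031 and 0 FPKM in cKO (SD 5.73). Snord71, Snord72, Snora20 and Snord4a followed, with SDs of 5.32, 5.18, 5.06 and 4.59. Snora20, in the chaperonin gene Tcp1, was at 345, 685 and 0 FPKM in controls and at 0, 377 and 0 FPKM in cKO, from no more than 2 fragments. The groups overlapped in all 5. The smallest SDs were of 2 kinds. Snord65 (0.076) and Snord49b (0.083) held 1 fragment or none in each library with steps, while Snord22 (0.26), Snora75 (0.28) and Snora81 (0.28) had values in every library. Snora75, in the nucleolin gene Ncl, held 4 or 5 fragments a library and stood at 38.3, 38.9 and 47.8 FPKM in controls and 48.8, 42.8 and 69.4 FPKM in cKO.

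Of the 73 tested loci, 5 were called by limma, with a Benjamini-Hochberg adjusted p no higher than 0.05 over all loci tested, or 6.85%, where 0.573% of all tested loci were called. That share rests on 78 calls, which became 21 to 55 with 1 library left out and 336 with robust variance estimation, while the class had 5 to 8 in these fits. All 5 were lower in cKO, a direction in which 0.331% of all loci were called, and 0 were higher, against 0.242%. They were Snord65, Snord49b, Snord49a, Scarna10 and Snord1b, 4 C/D loci and 1 Cajal body locus. By size of p they ranked 1, 3, 8, 11 and 13 among all 13612 loci. Each had a value in all 3 controls and was listed at 0 in all 3 cKO libraries, and no locus of the class had the reverse pattern. The filter asks for 1 FPKM in 3 libraries, so each entered the test only through its control values. The pattern is therefore no separate support for the calls. Over all 117 loci, 8 were at 0 in every cKO library with a value in some control, and the reverse held for 4. Among the other 23676 loci these numbers were 556 and 514. Whether the class differs from the others in this was not tested.

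Snord65 stood at 589, 675 and 664 FPKM in controls and at 0 in every cKO library, with a difference of -9.33 (SE 0.063, limma adjusted p = 4.7e-09). The control values were 1 fragment in control 2 and 1 in control 3, against 0 in cKO 1 and 2. A count of 0 allows up to 3 fragments as a 1-sided 95% Poisson limit, which is lower than a two-sided limit, as used for other counts, would be. At the 57 nt of Snord65, 3 fragments are 2540.1 FPKM in cKO 1 and 2228 FPKM in cKO 2, above all 3 control values. A lower level than in the controls was thus not detectable at this depth in these libraries.

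The other two of the cluster in 2410006H16Rik had the same form. Snord49b was at 224, 260.2 and 256 FPKM in the controls (difference -7.95, SE 0.068, limma adjusted p = 7.8e-09), again 1 fragment each in controls 2 and 3, and a 0 in cKO 1 allows up to 979 FPKM. Snord49a was at 609.6, 297 and 292 FPKM (difference -8.56, SE 0.27, limma adjusted p = 2.1e-05), 1 fragment each, and a 0 in cKO 1 allows up to 1119 FPKM. The host locus itself was at 76.9, 83.04 and 77.9 FPKM in controls and 74.2, 76.8 and 78.6 FPKM in cKO, overlapping, with a difference of -0.05 (limma adjusted p = 0.666).

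Scarna10 was at 93.5, 221 and 109 FPKM in the controls (difference -7.05, SE 0.30, limma adjusted p = 1.0e-04), 2 and 1 fragments in controls 2 and 3. Its RefSeq model has 71 nt, where the GENCODE transcript has 325. Its host Ncapd2, a condensin subunit gene, was at 45.7, 51.4 and 45.7 FPKM in controls and 36.2, 37.3 and 36.5 FPKM in cKO, every cKO value below every control value, without passing (difference -0.37, limma adjusted p = 0.0645). Snord1b was at 125, 204 and 67.0 FPKM in the controls (difference -6.92, SE 0.36, limma adjusted p = 3.4e-04), 3 and 1 fragments. It lies in 1810032O08Rik, whose locus also bears the name Snord1a and stood at 11.4, 13.5 and 84.2 FPKM in cKO against 12.3 to 12.9 FPKM in the controls.

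The size of these 5 differences was set by the pseudocount, since the cKO side is 0: for Snord65 it was -12.65 at a pseudocount of 0.1 and -6.03 at 10. It is therefore no measure of a fold, and none is given, because neither control 2 nor control 3 held more than the 3 fragments that a 0 allows. The 5 were called under all 17 alternative fits that kept them. Each of those fits used the same values of 0 in cKO, so this is no separate support for the calls. Together they rest on 13 fragments in controls 2 and 3 and 0 in cKO 1 and 2.

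**Figure D4:**
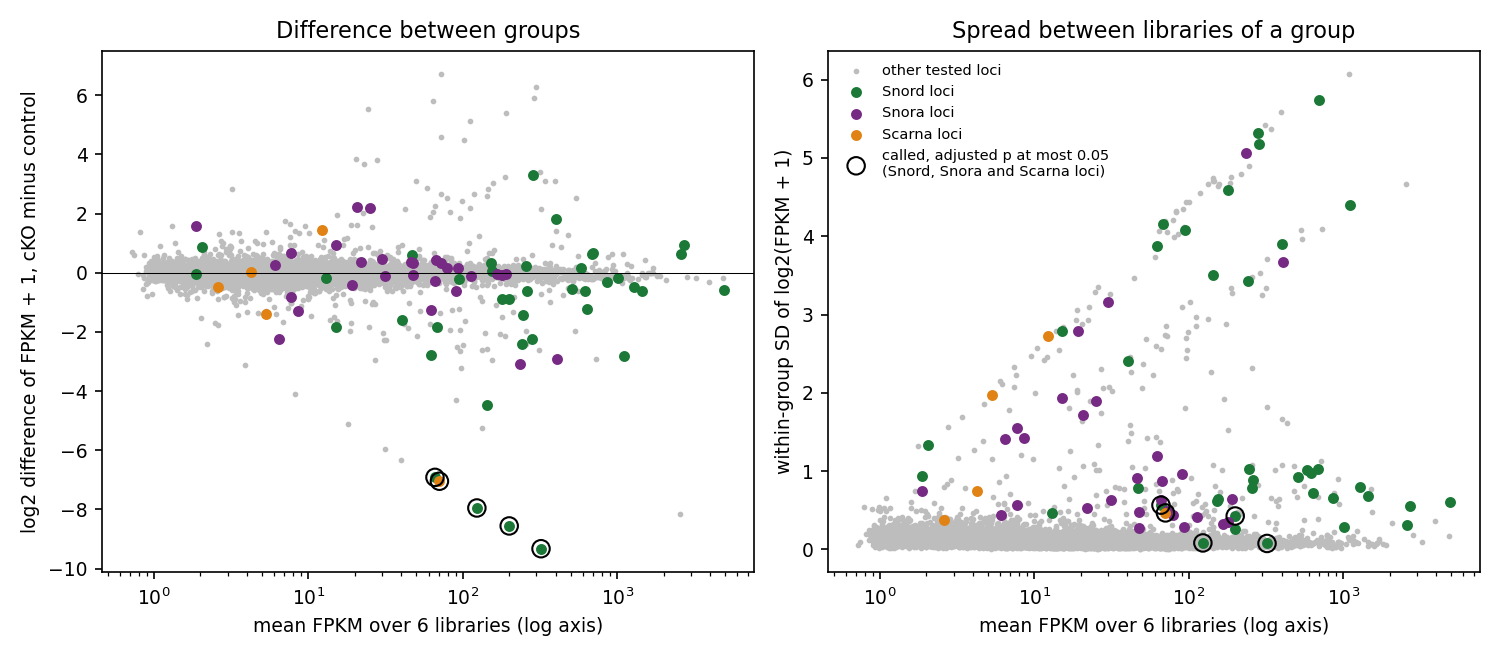
Left, difference of log2(FPKM + 1), cKO minus control, and right, SD within groups, both against mean FPKM over the 6 libraries (log axis), for the snoRNA and Cajal body loci by class and for all other tested loci in grey; rings mark the 5 called loci of the class. The class spreads from -9.33 to 3.30 on the left. On the right its points lie above most of the grey ones, except the ringed Snord65 (SD 0.076) and Snord49b (SD 0.083).

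The remaining 68 tested loci did not pass. Over all 73, 28 differences were positive and 45 negative, with a median of -0.18 against -0.01 over all tested loci. The median of the class was -0.063 without cKO 1, -0.30 without control 1, -0.31 without control 2 and -0.27 without control 3. The median was -0.60 for Snord (12 positive, 27 negative), -0.04 for Snora (14 and 15) and -0.47 for Scarna (2 and 3). An unadjusted limma p of at most 0.05 was found for 11 of the 73 (15.1%), and for 17.6% of all tested loci. Groups did not overlap in 10 of the 73 (13.7%), 7 with cKO below and 3 with cKO above, against 23.9% of all tested loci (13.6% below and 10.3% above). Whether these shares differ from the background was not tested.

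Snord22, in the noncoding host Snhg1, was the uncalled locus with the smallest p. It stood at 229.9, 249 and 292 FPKM in controls and at 113, 175 and 132 FPKM in cKO without overlap (difference -0.89, SE 0.17, limma adjusted p = 0.0762). Snhg1 itself was at 65.2, 79.1 and 65.6 FPKM in controls and 54.3, 70.8 and 70.9 FPKM in cKO, overlapping. Snord95 was at 964, 736 and 869 FPKM in controls and 554, 162 and 519 FPKM in cKO, without overlap and without passing (limma adjusted p = 0.236), from 5 and 6 fragments in controls 2 and 3 and 3 and 1 in cKO 1 and 2.

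The highest differences were smaller in size than those called, and none of them passed. Snord72, in the ribosomal protein gene Rpl37, had 3.30 (SE 3.24, limma adjusted p = 0.646) from 395, 0 and 0 FPKM in controls and 0, 877 and 432 FPKM in cKO. Snora2b, Snora30, Snord57 and Snora74a had 2.23, 2.20, 1.81 and 1.58. Snora2b, in Kansl2, was at 21.8, 0 and 11.1 FPKM in controls and 42.4, 24.8 and 24.2 FPKM in cKO, without overlap, from at most 3 fragments a library. Snord57, in Nop56, was listed at 0 in control 1, so that its difference was positive although its mean FPKM was lower in cKO, 286 ± 40.5 against 515 ± 512 (SD, n = 3 each).

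Large differences gathered where fragments were few. Of the 73 tested loci, 27 (37.0%) had a difference of at least 1 in size, as had 138 (1.02%) of the 13539 others. Of the 30 loci with fewer than 8 fragments 22 did, of the 19 with 8 to 19 fragments 4 did, and of the 21 with 20 or more 1 did. All 5 calls lay in the first of these bands.

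The 21 loci with at least 20 fragments allowed a comparison in fragments. At equal depth the ratio of cKO 1 and 2 to controls 2 and 3 was below 1 in 14 and above 1 in 7, with a median of 0.867, and the exact 95% interval of the ratio included 1 in each. Snora65, in Rpl12, had the most fragments, 42 in the controls and 27 in cKO, a ratio of 0.760 (0.451 to 1.26). Snord96a had 29 and 25, a ratio of 1.02 (0.572 to 1.80). The lowest ratio was that of Snora41, in Eef1b2, at 0.414 (0.148 to 1.02), and the highest that of Snord91a at 2.36 (0.893 to 6.92). The intervals pool the fragments of 2 libraries a group and cover counting error only, not the spread between libraries. Differences inside these intervals were not detectable at this depth.

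Host genes showed far less spread than the small RNAs inside them. For 61 tested loci the host was tested too, 50 hosts in all. The median SD was 0.912 for the small RNAs and 0.0872 for their hosts, and the small RNA had the larger SD in 59 of the 61 pairs. None of the hosts was called by limma and none had a difference of 1 or more, against 23 of the 61 small RNAs. The largest difference of a host was 0.87, that of the locus 1810032O08Rik,Snord1a. The sign was the same for RNA and host in 31 pairs. In 25 pairs the small RNA had the higher mean FPKM. Snord37 at 4932 FPKM lay above its host Eef2, which stood at 890.3, 835 and 815 FPKM in controls and 784, 834 and 868 FPKM in cKO.

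No protein gene of the snoRNA pathway passed the test. All 5 tested C/D particle proteins had negative differences (median -0.18), and 0 passed. Fbl, the methyltransferase fibrillarin, was at 93.4, 85.5 and 83.4 FPKM in controls and 65.05, 73.6 and 80.6 FPKM in cKO (limma adjusted p = 0.212). Nop58 and Nop56, core proteins of the same particle, had differences of -0.27 and -0.18 (limma adjusted p = 0.0904 and 0.219). Of 6 H/ACA proteins 5 were negative (median -0.11) and 0 passed, among them Dkc1, the pseudouridine synthase dyskerin, at -0.31. Of 14 assembly and Cajal body factors 11 were negative (median -0.10) and 0 passed, with the helicases Ruvbl1 and Ruvbl2 at -0.26 and -0.21. Before adjustment, a limma p of at most 0.05 was found for 3 C/D proteins, 0 H/ACA proteins and 4 assembly factors. The same held for 17.6% of all tested loci, whose median difference was -0.01.

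Of 34 protein-coding host genes 32 had negative differences (median -0.16) and 0 passed, while 5 had a limma p of at most 0.05 before adjustment, as had 17.6% of all tested loci. Of 16 noncoding hosts 10 were positive (median 0.04) and 0 passed. Gas5, a noncoding host of many C/D snoRNAs, was at 25.01, 29.4 and 29.2 FPKM in controls and 16.2, 22.4 and 18.3 FPKM in cKO, without overlap (difference -0.54, limma adjusted p = 0.102). Other short RNAs had zeros and a wide spread too: of 9 loci 3 were tested and 0 passed, with a median SD of 1.38. Among 971 loci of microRNAs, with a median model of 80 nt, 630 (64.9%) were listed at 0 in all libraries. Of these microRNA loci 148 were tested and 3 were called.

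Over the series, Zeb2 was at 11.4, 9.52 and 7.995 FPKM in controls and 6.19, 3.89 and 5.81 FPKM in cKO (limma adjusted p = 0.107). Xist was at 0.331 to 0.515 FPKM in controls and 142 to 147 FPKM in cKO, and Eif2s3y and Ddx3y were high in controls only, so genotype and sex cannot be told apart. Of 10 cerebellar markers 4 had positive and 6 negative differences, and 0 were called. Summed over the 10, controls had 968 to 1041 FPKM and cKO 899 to 953 FPKM, with none at 0 everywhere. Gdf10 alone had means of 114.8 FPKM in controls and 54.7 FPKM in cKO. Summed meningeal markers (7, all positive, 0 called) ran from 5.79 to 26.4 FPKM and from 12.6 to 59.3 FPKM, choroid plexus markers (5) from 3.04 to 7.85 and from 3.26 to 14.6 FPKM, and erythroid markers (6) from 6.55 to 26.04 and from 12.2 to 13.8 FPKM. Of 4 tested erythroid loci, 1 named Hba-a1,Hba-a2 was called higher, and the 3 others, a second locus of that name among them, had negative differences and were not called. Their part in the results was not tested. Fewer cells of a type and less RNA per cell cannot be told apart in whole tissue.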

How the data were processed

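The libraries hold Trizol-extracted total RNA prepared with Illumina's TruSeq RNA kit, per the labels' protocols. CASAVA, TopHat, Cufflinks and build mm10 are named in the submitters' processing notes. The unit of the deposited table was taken to be FPKM, inferred from Cufflinks and the values. The sources used here give no versions, annotation or read depth, and depth was recovered only as relative steps in 4 libraries. The labels' description of cKO 1 carries the number 3, and the title was followed. All 6 columns were used.

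Values were fitted as log2(FPKM + 1) with limma 3.58.1 (R 4.3.3, trend, moderated two-sided test) on the 13612 loci that reached 1 FPKM in 3 or more libraries, and adjusted over all of them. On data simulated from these libraries, the fit called 36 of 50 loci changed by 0.5 log2 units, 45 of 50 changed by 1, and 6 of 187 calls were false. The changed loci were drawn from all 13612, and values spread normally around each mean, without zeros or fragment steps. These rates therefore do not apply to the snoRNA and Cajal body loci or to their 5 calls. Lengths came from RefSeq, positions and sequences from GENCODE M21, and steps, counts and figures from Python 3.11.15 with numpy 2.4.6, pandas 2.3.3, scipy 1.17.1 and matplotlib 3.10.9.

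The loci, gene lists and tests were chosen with earlier results of these data known. The rule for names took the 10 with the highest mean, all called, the 5 highest and 5 lowest differences, the 5 largest and 5 smallest SDs, the 5 on each side of the filter and up to 3 genes per list with the smallest p, of which some list genes are given only in counts. Others, such as Snord95, Snora65, Snora41 and those shown by sequence, were picked after their values were seen. Alternatives were a replicate block, deposit or step pattern as a covariate, each library left out, other pseudocounts, filters, scaling and variance settings, and loci left out of the fit. The 4 libraries with steps alone were added after the data were seen. Same-numbered control and cKO libraries had deviations correlated at r = -0.027, 0.037 and 0.049, so the numbers were not taken as pairs.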

Additional observations from a re-analysis of the deposited data

How the results depend on the processing

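The 5 calls among the snoRNA and Cajal body loci held in each alternative run that kept them. All these runs share the values of 0 in cKO from which the calls come, so they could hardly have differed and add no support. The number called was 5 to 8 when 1 library was left out, the 8 being without cKO 3, and 8 with only the 4 libraries that share steps, a setting added after seeing the data. The 3 added each time were Snora78, Snord55 and Snora15, which were higher in cKO 3 than in cKO 1 and 2. Over all loci, 78 were called, and 15 with the replicate number as a block (a pairing the libraries' deviations did not bear out), 22 with the deposit as a covariate, 28 without a filter, 30 at a mean of at least 5 FPKM, 336 with robust variance estimation, 30 with the 4 libraries alone and 325 without the 230 tested loci of small RNAs. With 1 library left out the count ran from 21 (without cKO 1) to 55, and was 33 without control 1, 28 without control 2, 27 without cKO 2 and 44 without cKO 3. The block left the 5 calls among the snoRNA and Cajal body loci in place. The median SD of the class was 0.927 at a pseudocount of 0.1 and 0.625 at 10, and ran from 0.735 to 0.855 with 1 library left out. The Spearman correlation between length and level was -0.33 with the median over libraries in place of the mean. The median difference of the class ran from -0.31 to -0.063 with 1 library left out. Of the single named loci's values under the alternatives, 468 kept direction and side of the threshold and 20, none of them called, changed sign. In every case the cause was not tested. Depth limits all of this: most values rest on 5 fragments or fewer, for control 1 and cKO 3 no fragment numbers could be read, and a value of 0 allows up to 3 fragments.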
